A study of Mus musculus with 72 samples.

Results

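The interleukin 1 family was examined as 9 genes across the colon of 72 mice: the agonist ligands Il1b and Il1a, the antagonist Il1rn, the signalling receptor Il1r1 and its partner chain Il1rap, the decoy receptor Il1r2, and the related cytokines Il33 and Il18, with Il1rl1, the receptor for Il33. The genes were listed by name, and each was read on its brightest probe set among those annotated to 1 gene symbol. By this rule 8 of the 9 genes could be measured among 18194 genes in all, and these 8 were among the 12535 genes bright enough to test. Il1rl1 was not analysed here.

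All mice were wild-type Balb/c, with 1 Affymetrix array of colon RNA per mouse. Colitis had been induced in 64 of them with TNBS (trinitrobenzene sulfonic acid, a hapten given into the rectum) at 70 µg per g, and the colon was taken on day 4. Before TNBS the colitic mice had received TNFR-Ig at 0.3 mg/kg together with the anti-TWEAK antibody mP2D10 at 10 mg/kg (the combination, n = 15), that antibody alone (n = 14), TNFR-Ig alone (n = 12), a control IgG2a antibody at 10 mg/kg that recognises human CD20 (n = 15), or nothing (untreated, n = 8); 8 naive mice had no colitis. TNFR-Ig is a soluble TNF receptor fusion protein that binds TNF; the labels call it TNFR-Fc for the combination. TNFR-Ig mice received no antibody, so TNFR-Ig and the absence of the control antibody cannot be told apart in their comparison with control-antibody mice. The labels divide the arrays into experiment 7 (34 arrays) and experiment 10 (38 arrays), each with every colitic group, while naive mice were in experiment 10 alone. Experiment 7 and experiment 10 also lay in different array runs, except combination replicates 7 and 8 of experiment 7, which lay in the run of experiment 10. A difference between experiments therefore cannot be told apart from one between array runs.

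Interleukin 1 alpha and beta signal through the same receptor, IL1R1, which needs the accessory chain IL1RAP; the antagonist encoded by Il1rn occupies that receptor without signalling, and the decoy encoded by Il1r2 binds ligand without signalling. IL-33, an alarmin held in the nuclei of stromal and epithelial cells, uses the same accessory chain, while IL-18 uses a separate receptor pair. IL-1 beta and IL-18 are made as precursors that inflammasome caspases cleave, so transcript levels do not report the active proteins.

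By RefSeq order, Il1a and Il1b are adjacent on chromosome 2, and Il1r2, Il1r1, Il1rl2 and Il1rl1 follow each other on chromosome 1. The promoter windows of Il1b, Il1a and Il1r2 are shown because these were the members lower in combination than in control-antibody mice. Each runs from 250 bases before to 50 bases after the annotated start (RefSeq, GRCm38.p6), in the direction of the gene, at chr2:129371090-129371389 on the minus strand for Il1b, chr2:129309923-129310222 on the minus strand for Il1a, and chr1:40085843-40086142 on the plus strand for Il1r2. Capitals mark matches on either strand to a TATA box (TATAAA), an AP-1 motif (TGANTCA) or the NF-kB consensus.
Il1b: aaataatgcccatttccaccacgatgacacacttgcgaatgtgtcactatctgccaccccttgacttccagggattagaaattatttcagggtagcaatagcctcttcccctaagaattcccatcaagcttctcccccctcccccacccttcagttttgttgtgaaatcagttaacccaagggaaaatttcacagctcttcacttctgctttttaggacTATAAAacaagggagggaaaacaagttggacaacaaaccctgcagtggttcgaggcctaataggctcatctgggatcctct
Il1a: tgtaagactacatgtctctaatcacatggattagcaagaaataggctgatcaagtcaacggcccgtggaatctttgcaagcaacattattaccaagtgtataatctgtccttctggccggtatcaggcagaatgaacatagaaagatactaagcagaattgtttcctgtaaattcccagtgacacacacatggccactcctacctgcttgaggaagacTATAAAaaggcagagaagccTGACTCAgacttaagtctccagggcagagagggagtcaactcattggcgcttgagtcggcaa
Il1r2: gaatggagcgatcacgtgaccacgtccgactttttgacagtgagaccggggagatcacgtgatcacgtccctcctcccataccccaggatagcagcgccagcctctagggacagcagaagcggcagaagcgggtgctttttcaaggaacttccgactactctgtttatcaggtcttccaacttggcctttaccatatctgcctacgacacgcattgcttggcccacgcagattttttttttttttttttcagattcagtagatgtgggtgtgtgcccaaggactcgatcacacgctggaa
Il1b and Il1a both held TATAAA on the gene's strand, beginning 31 bases before the start in Il1b and 32 bases before it in Il1a. Il1a also held TGANTCA beginning 12 bases before the start, and Il1r2 held none of the 3 motifs in this window. Of 32851 windows of this length, 13.6% held TATAAA, 7.81% held TGANTCA and 8.46% held the NF-kB consensus. Promoter windows were found for all 9 genes, some with several starts, and 1 of the 2 Il1r1 windows was alone among the members' windows in matching the NF-kB consensus.

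Values are log2 expression; a level cannot be compared between genes, because probe sets differ in affinity. The lowest value in the table, 2.08, is a floor, and 36% to 37.8% of probe sets on each array lay within 0.1 of it. Array medians lay between 4.60 and 4.77, and Actb read 0.93 to 1.50 higher by its 3 prime than by its 5 prime probe set, a gap that widens in degraded RNA. The arrays are of whole colon, so fewer cells of a type and less RNA per cell cannot be told apart. Exocrine pancreas markers (7 of 9 tested) ranged widely inside groups, from 3.80 to 13.4 in combination and from 3.64 to 12.9 in control-antibody mice as mean log2 levels. The first naive array carries contradictory labels, with a combination treatment in 1 field; it was kept as naive, and its Il1b level of 2.74 lay among those of the other naive mice. The labels do not say whether mice shared a cage or litter, so p-values measure the spread between these mice.

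In untreated colitis, 6 of the 8 members rose above naive colon and none fell: Il1b, Il1r2, Il33, Il1rn, Il1r1 and Il1rap. Across all genes tested in this comparison 47.8% were called by limma, with adjusted p (Benjamini-Hochberg) under 0.05 as the threshold. The median change of the members was 0.95, against -0.0085 for all genes tested. Il1b, which encodes the secreted agonist IL-1 beta, had a lowest value of 10.29, a median of 12.87 and a highest of 14.06 in untreated colitis, against 2.36, 2.73 and 6.92 in naive colon. The groups did not overlap, although naive replicate 5 stood far above the other naive mice, whose highest value was 3.36. The log2 difference was 9.35 ± 0.75 (SE; adjusted p = 4.25e-16), and 9.87 without that mouse; it ranked 3 by size of change among all genes tested.

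Il1r2, whose decoy product is abundant on neutrophils, was close to the floor in naive colon, with 3 of 8 arrays within 0.1 of it. It had a lowest, median and highest value of 8.34, 10.66 and 11.99 in untreated colitis, against 2.08, 2.25 and 2.45 in naive colon. The groups lay far apart, and the log2 difference was 7.76 ± 0.90 (SE; adjusted p = 1.41e-10). Naive mice were in experiment 10 alone, so each fitted difference from naive colon rests on an experiment term estimated from colitic mice. Within experiment 10 the means of untreated and naive mice differed by 8.65 for Il1r2 and 10.1 for Il1b. They differed by 2.41 for Il33, 0.97 for Il1rn, 0.73 for Il1r1 and 0.69 for Il1rap. Il33 had values of 9.14, 10.92 and 11.43 in untreated colitis, against 7.77, 8.27 and 8.70 in naive colon. Again every untreated colitic mouse was above every naive mouse, and the difference was 2.42 ± 0.34 (adjusted p = 2.24e-08), a 5.34-fold rise.

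On the brightest probe sets the antagonist and the signalling receptor chains changed less. Il1rn rose by 0.76 ± 0.11 (1.7-fold, adjusted p = 1.74e-08), with untreated mice at 11.82 to 12.65 and naive mice at 11.19 to 11.47. The size of this rise depended on the probe set. The most variable Il1rn probe set averaged 7.72 in untreated and 5.97 in naive mice, a wider gap, and another averaged 9.95 and 9.19. Il1r1 rose by 0.72 ± 0.14 (adjusted p = 2.78e-05) and Il1rap by 0.47 ± 0.17 (adjusted p = 0.0159). In both of these, 7 of 8 untreated mice lay above the highest naive mouse. The Il1rap call was lost when untreated replicate 1 or replicate 2 of experiment 10 was left out, with adjusted p = 0.0515 and 0.0522.

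Il1a, the agonist whose precursor is already active, was at the floor in 8 of 8 naive mice. It had a lowest, median and highest value of 2.08, 2.66 and 5.81 in untreated colitis, with 3 of 8 mice within 0.1 of the floor. Its difference of 1.14 ± 0.51 did not pass (adjusted p = 0.0575), and it passed in experiment 10 alone, at 1.76 (adjusted p = 0.0198). Il18, a cytokine made constitutively by gut epithelium, had values of 12.92, 13.14 and 13.37 in untreated colitis, against 13.08, 13.26 and 13.39 in naive colon. The ranges overlapped, with 3 of 8 untreated mice below the lowest naive mouse, and the difference was -0.10 with a 95% interval of -0.24 to 0.04 (adjusted p = 0.248); in experiment 10 alone all 8 members were called, Il18 as lower.

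Markers of several cell types moved with these changes, and those of others mostly did not. Called were 2 of 7 tested T cell, 0 of 10 squamous, 1 of 10 skeletal muscle and 1 of 7 exocrine pancreas markers. Of all genes 47.8% were called. All 12 tested neutrophil markers, of 16 listed, were higher in untreated colitis than in naive colon, and their mean level ran from 8.36 to 11.5 in untreated colitis against 2.65 to 3.89 in naive colon, where 4 of the 16 were at the floor on every array. Of 17 tested macrophage markers 16 were higher and 1 lower, with mean levels of 8.63 to 10.2 in untreated colitis against 7.55 to 8.09 in naive colon. Of 12 epithelial markers 8 were lower, with mean levels of 14.0 to 14.2 in untreated colitis against 14.3 to 14.4 in naive colon. Endothelial markers were higher in 8 of 10, with mean levels of 7.90 to 8.86 in untreated colitis against 7.25 to 7.71 in naive colon. Of 3 tested mast cell markers, of 10 listed, 2 were higher and 1 lower, with mean levels of 6.55 to 8.71 in untreated colitis against 4.92 to 5.13 in naive colon, and fibroblast markers were higher in 7 and lower in 1 of 10, with mean levels of 11.4 to 12.1 in untreated colitis against 11.3 to 11.7 in naive colon. Their part in the members' changes was not tested.

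**Figure D1:**
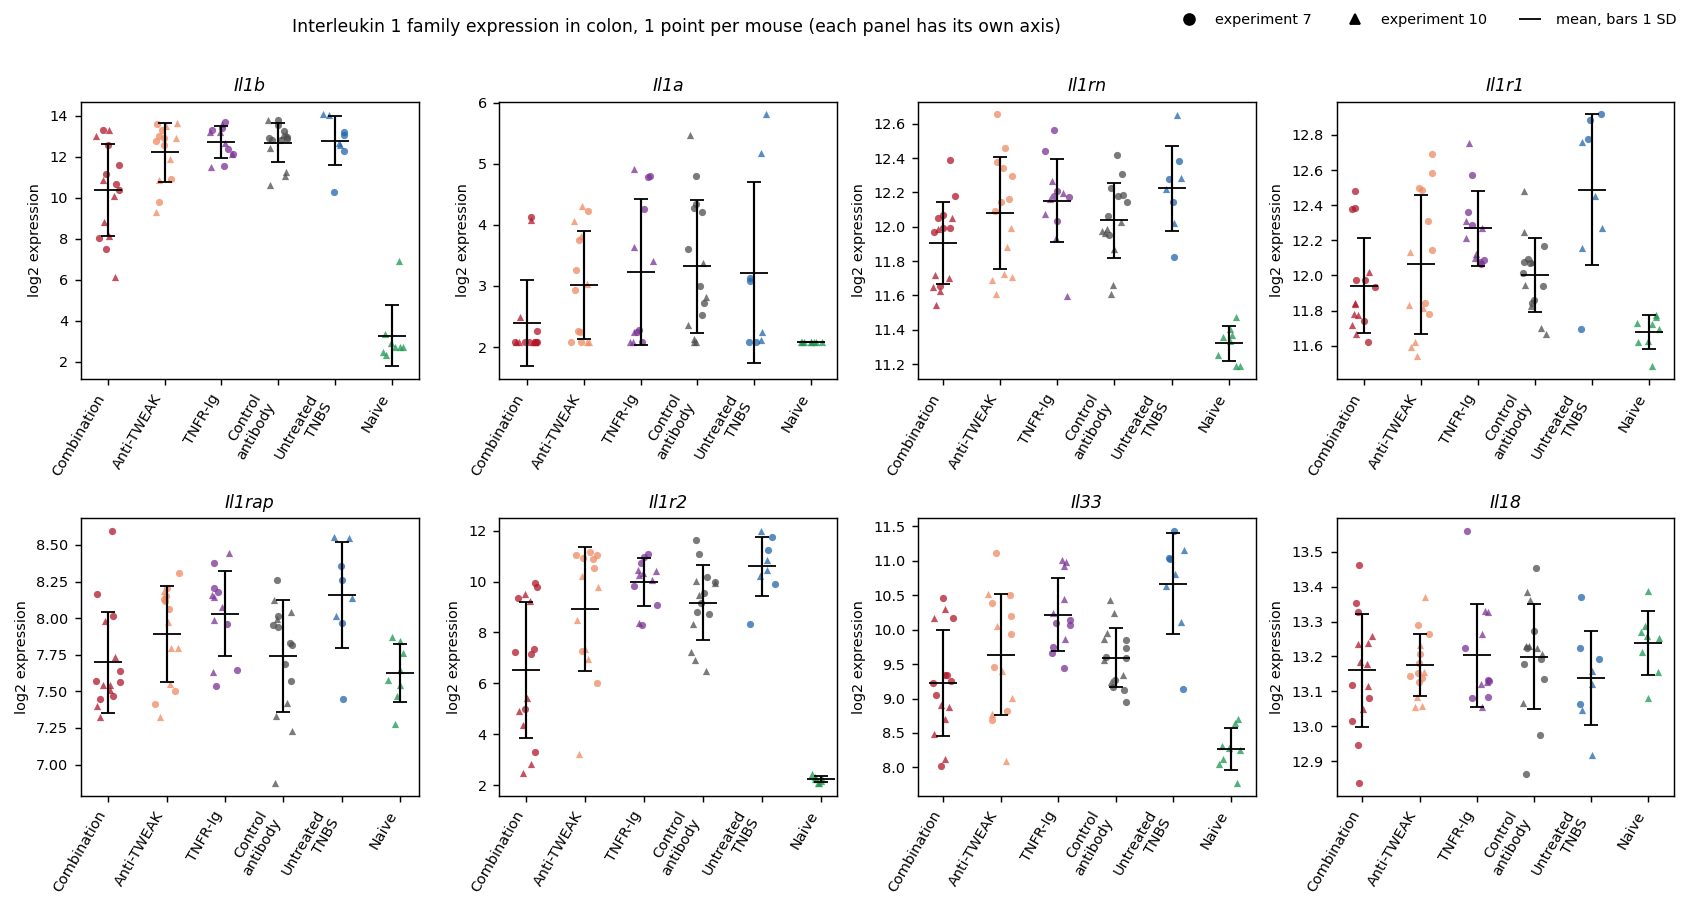
Log2 expression of the 8 measured members in each mouse (circles experiment 7, triangles experiment 10), by treatment group, with the mean and 1 SD; each panel has its own axis. Il1b lies between 6.12 and 13.3 and Il1r2 between 2.47 and 9.94 in combination mice, while Il18 lies between 12.8 and 13.6 in every group.

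The combination was set against the control antibody to ask what blocking both cytokines did to colitic colon. Il1b, Il1a and Il1r2 were lower, 3 of the 8 members, and no member was higher. The share of all genes called in this comparison was 31.2%, close to the members' share. The members' median change was -0.25, against -0.0025 for all genes tested.

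Il1b had a lowest value of 6.12, a median of 10.68 and a highest of 13.32 in combination mice, against 10.63, 12.89 and 13.79 in control-antibody mice. The groups overlapped: 7 of 15 combination mice lay below the lowest control-antibody mouse, and the others lay inside the control range. The difference was -2.31 ± 0.53 (SE; 4.97-fold lower; adjusted p = 0.000956). It was -2.45 in experiment 7 (adjusted p = 0.0196) and -2.15 in experiment 10, where it did not pass (adjusted p = 0.0734). The SD of Il1b was 2.25 among combination mice and 0.96 among control-antibody mice.

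Il1r2 showed the same kind of spread. It had values of 2.47, 7.17 and 9.94 in combination mice, against 6.50, 9.48 and 11.63 in control-antibody mice, as the lowest, median and highest. Here too 7 of 15 combination mice fell below every control-antibody mouse, and the lowest combination mouse was next to the naive range. The difference was -2.65 ± 0.64 (SE; 6.27-fold lower; adjusted p = 0.00144), with -2.50 in experiment 7 (adjusted p = 0.0589) and -2.82 in experiment 10 (adjusted p = 0.0309).

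Il1a was within 0.1 of the floor in 11 of 15 combination mice, against 3 of 15 control-antibody mice. Its values reached 4.13 in combination mice and 5.47 in control-antibody mice, so the ranges overlapped throughout. The difference of -0.93 ± 0.36 passed narrowly (adjusted p = 0.0407), and the floor limits how far it can go. Il1a entered the test by its mean of 2.90 over all arrays. Its means in combination (2.39) and naive mice (2.08) were under the filter of 2.42. Without the filter on dim genes, or with every probe set tested, Il1a lost this call. The difference did not pass in experiment 7 (-1.33, adjusted p = 0.0535) or in experiment 10 (-0.48, adjusted p = 0.583), and leaving out any one of 17 arrays, 11 of the combination and 6 of the control antibody, also ended the call (adjusted p up to 0.0868). So did leaving out the combination arrays of experiment 7 that the labels place in another array run (-0.88, adjusted p = 0.0749), whereas Il1b (-2.09, adjusted p = 0.00404) and Il1r2 (-2.66, adjusted p = 0.00263) passed without them.

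The other 5 members did not pass. Il33 had a lowest, median and highest value of 8.02, 9.22 and 10.46 in combination mice, against 8.95, 9.59 and 10.43 in control-antibody mice. Although 6 of 15 combination mice lay below the lowest control mouse, the difference was -0.37 with an interval of -0.84 to 0.11 (adjusted p = 0.243). It passed with exocrine pancreas markers as a covariate, an alternative chosen after seeing the data (-0.57, adjusted p = 0.0274). Il1r1 differed by -0.06 (interval -0.26 to 0.14), Il1rap by -0.04 (-0.28 to 0.20) and Il18 by -0.04 (-0.14 to 0.06). These intervals bound any change of the receptor chains and Il18 on these probe sets to less than 0.3 log2 units.

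Il1rn depended on the probe set. On its brightest probe set it differed by -0.13 ± 0.07 between combination and control-antibody mice (adjusted p = 0.168). Among 3 probe sets, the one with the highest variance averaged 7.07 in combination and 7.58 in control-antibody mice, and it differed by -0.51, which passed when each gene was read on its most variable probe set (adjusted p = 0.0146). Il1rap has 5 probe sets, and its most variable one, at 2.73 in combination and 3.23 in control-antibody mice near the floor, likewise differed by -0.50 (adjusted p = 0.00975), against -0.04 on the brightest. Which transcripts these probe sets detect was not analysed here.

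Neutrophil markers moved with Il1b and Il1r2 in this comparison: 9 of 12 tested were lower, with a median change of -1.70, and their mean level ran from 4.29 to 9.51 in combination mice against 6.53 to 10.96 in control-antibody mice. In each of these groups 1 of the 16 listed markers was at the floor on every array. Of 17 macrophage markers 1 was higher and 1 lower, with mean levels of 8.17 to 9.42 in combination mice and 8.45 to 9.52 in control-antibody mice. Of 7 tested T cell markers, of 10 listed, 5 were higher, with mean levels of 5.18 to 7.09 in combination mice against 4.61 to 6.25 in control-antibody mice. Their part in the members' changes was not tested.

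**Figure D2:**
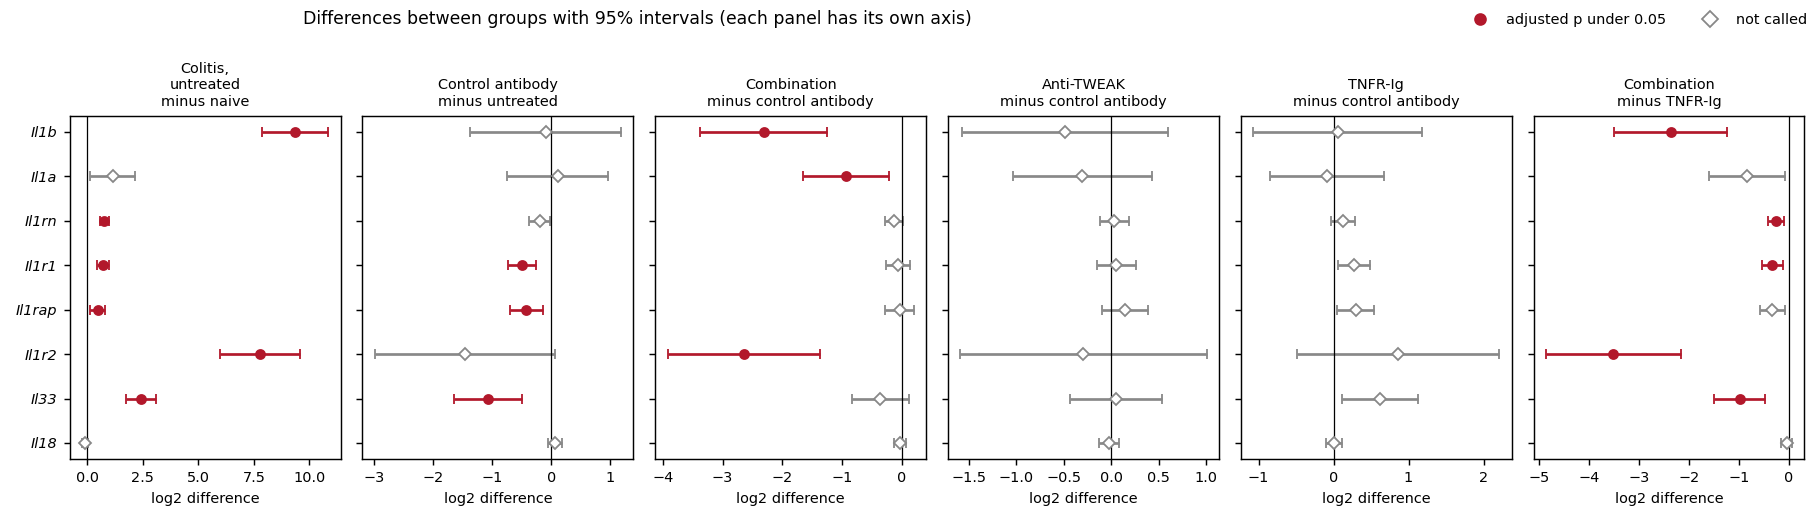
Fitted log2 differences of the 8 members with 95% intervals for 6 comparisons, filled red circles where the adjusted p was under 0.05 and open grey diamonds elsewhere; each panel has its own axis. Combination against control antibody shows Il1b at -2.31, Il1a at -0.93 and Il1r2 at -2.65 as called, and neither single agent shows a called member.

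Neither single agent changed a member detectably. For TNFR-Ig against the control antibody limma called 0 of 8 members, with 4.08% of all genes called; at an unadjusted p under 0.05, 3 members were higher, Il1r1 (0.27), Il1rap (0.29) and Il33 (0.62), where 21% of all genes were below that unadjusted threshold. This comparison shares its control-antibody mice with that of the control antibody and untreated mice. Il1b had a lowest, median and highest value of 11.49, 12.92 and 13.70 in TNFR-Ig mice, against 10.63, 12.89 and 13.79 in control-antibody mice. The ranges coincided, and the difference was 0.05 with an interval of -1.07 to 1.18. For Il1r2 it was 0.86 (interval -0.49 to 2.21), for Il1rn 0.12, for Il1a -0.09 and for Il18 0.0030. Against untreated mice, which also received no antibody, TNFR-Ig gave 0 called members, none at an unadjusted p under 0.05, with 3.01% of all genes called; Il1b differed by -0.04 (interval -1.37 to 1.29). The other differences were -0.60 for Il1r2, -0.45 for Il33, -0.22 for Il1r1, -0.13 for Il1rap, -0.07 for Il1rn, 0.02 for Il1a and 0.07 for Il18.

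For anti-TWEAK against the control antibody limma also called 0 of 8 members, with 0 at an unadjusted p under 0.05 and 2.8% of all genes called. Il1b had values of 9.30, 12.83 and 13.65 in anti-TWEAK mice, and its difference was -0.48 (interval -1.57 to 0.60). Il1r2 had values of 3.23, 10.00 and 11.18 in anti-TWEAK mice and differed by -0.29 (interval -1.59 to 1.00). The other differences were -0.31 for Il1a, 0.15 for Il1rap, 0.05 for Il1r1, 0.05 for Il33, 0.03 for Il1rn and -0.02 for Il18. A few anti-TWEAK mice were low: 2 of 14 lay below every control-antibody mouse for each of these genes. The intervals leave room for changes of over 1 log2 unit in either gene.

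The combination was also set against each agent alone. Against TNFR-Ig, lower values were called for 5 of 8 members, Il1b, Il1r2, Il33, Il1r1 and Il1rn, where 6.71% of all genes were called. The members' median change was -0.59, against -0.0035 for all genes tested. Combination mice had received antibody and TNFR-Ig mice none, so in this comparison anti-TWEAK and the presence of an antibody cannot be told apart. The control antibody against untreated mice gave -1.07 for Il33 and -0.49 for Il1r1. Il1b was lower by a log2 difference of -2.37 ± 0.57 (adjusted p = 0.00731), and 10 of 15 combination mice lay below the lowest TNFR-Ig mouse. Il1r2 differed by -3.51 ± 0.68 (11.4-fold lower; adjusted p = 0.00192), with values of 2.47 to 9.94 in combination mice and 8.31 to 11.09 in TNFR-Ig mice. Il33 differed by -0.99 ± 0.25 (adjusted p = 0.0122), and 11 of 15 combination mice lay below the lowest TNFR-Ig mouse.

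The remaining calls of that comparison were narrow. Il1r1 differed by -0.33 ± 0.11 (adjusted p = 0.0429) and Il1rn by -0.26 ± 0.08 (adjusted p = 0.0371). The Il1r1 call was lost when any one of 18 arrays was left out (adjusted p up to 0.114), and that of Il1rn when any one of 13 was (up to 0.0717). Il1rap, at -0.33 (adjusted p = 0.0945), passed without TNFR-Ig replicate 5 of experiment 7 (adjusted p = 0.0486) or combination replicate 7 of experiment 7 (adjusted p = 0.0333). Il1a, at -0.84 (adjusted p = 0.163), and Il18, at -0.04, did not pass. In experiment 7 alone no member passed, with Il1b at -2.09, Il1r2 at -2.60 and Il33 at -0.50, while in experiment 10 Il1r2 (-4.46), Il33 (-1.50) and Il1r1 (-0.49) passed. Neutrophil markers were lower in 10 of 12 and macrophage markers in 9 of 17; mean levels in TNFR-Ig mice were 7.67 to 10.0 for neutrophil and 8.54 to 10.2 for macrophage markers. Their part in these differences was not tested.

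Against anti-TWEAK alone limma called 0 of 8 members, and 0% of all genes, for the combination, with 3 members lower at an unadjusted p under 0.05, where 18% of all genes were. These were Il1b, at -1.83 (interval -2.91 to -0.75; adjusted p = 0.126), Il1r2, at -2.36 (-3.65 to -1.06; adjusted p = 0.107), and Il1rn, at -0.16 (-0.32 to -0.01). The other differences were -0.63 for Il1a, -0.41 for Il33, -0.19 for Il1rap, -0.11 for Il1r1 and -0.02 for Il18. The Il1r2 difference passed without anti-TWEAK replicate 7 of experiment 7 (adjusted p = 0.0421), combination replicate 1 of experiment 7 (0.0457) or combination replicate 2 of experiment 10 (0.0439).

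Whether the combination exceeded the sum of the single agents was tested as a departure from additivity on the log2 scale: the change with the combination less the changes with each single agent, all against the control antibody. With limma no member passed, where 0.319% of all genes did, and 6 of 8 had an unadjusted p under 0.05, where 14.3% of all genes did. Il1r2 departed by -3.22 ± 0.94 (adjusted p = 0.084), Il1b by -1.88 ± 0.78 (adjusted p = 0.241) and Il33 by -1.03 ± 0.35 (adjusted p = 0.125). The others departed by -0.54 for Il1a, -0.48 for Il1rap, -0.39 for Il1r1, -0.29 for Il1rn and -0.02 for Il18. Because TNFR-Ig mice were given no antibody, any antibody effect remains in this contrast. For Il1r2 it passed when any one of 6 arrays was left out (adjusted p down to 0.0356): TNFR-Ig replicate 5, anti-TWEAK replicates 6 and 7 and combination replicate 7 of experiment 7, and anti-TWEAK replicate 8 and combination replicate 2 of experiment 10.

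The combination did not bring all members to naive levels. Against naive colon 4 of 8 members were higher, Il1b, Il1r2, Il33 and Il1rn, with 25.3% of all genes called in either direction. Il1b remained 6.94 ± 0.67 higher (adjusted p = 8.42e-13), and 14 of 15 combination mice lay above the highest naive mouse. Il1r2 was 3.65 ± 0.80 higher (adjusted p = 0.000403), Il33 0.98 ± 0.30 (adjusted p = 0.0108) and Il1rn 0.43 ± 0.09 (adjusted p = 0.000318). Within experiment 10, which alone held naive mice, the means differed by 6.77 for Il1b, 3.30 for Il1r2, 0.81 for Il33 and 0.43 for Il1rn. Il1r1 differed by 0.16 (interval -0.09 to 0.41) and Il1rap by 0.01 (interval -0.29 to 0.31), and neither passed, nor did Il1a (0.31) and Il18 (-0.08).

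The control antibody itself was set against untreated colitis, to see what the antibody alone changed. It gave 3 of 8 members lower, Il33, Il1r1 and Il1rap, and 10.3% of all genes were called. Il33 had a lowest, median and highest value of 8.95, 9.59 and 10.43 in control-antibody mice, against 9.14, 10.92 and 11.43 in untreated mice. The ranges overlapped, with 2 of 15 control-antibody mice below the lowest untreated mouse, and the difference was -1.07 ± 0.29 (2.1-fold lower; adjusted p = 0.0122). It was -1.25 in experiment 7 and -0.87 in experiment 10, and passed in neither (adjusted p = 0.17 and 0.0923), each holding 4 untreated mice.

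Il1r1 had values of 11.67, 12.02 and 12.48 in control-antibody mice, against 11.69, 12.60 and 12.92 in untreated mice, and differed by -0.49 ± 0.12 (adjusted p = 0.00647). The experiments gave -0.56 (adjusted p = 0.182) and -0.42 (adjusted p = 0.0242). Il1rap differed by -0.42 ± 0.14 (adjusted p = 0.0446), with -0.12 in experiment 7 and -0.74 in experiment 10, and its call was lost without any one of 13 arrays (adjusted p up to 0.139). Il1b and Il1r2 did not pass, at -0.09 (interval -1.37 to 1.18) and -1.46 (interval -2.99 to 0.06), nor did Il1a at 0.11 and Il18 at 0.06. The 2 experiments differed in sign for Il1b, with means differing by 0.90 in experiment 7 and -1.13 in experiment 10. They also did for Il1a (1.10 and -0.94) and Il18 (-0.05 and 0.18). For Il1r2 they gave -0.41 and -2.54, and in experiment 10 all 7 control-antibody mice lay below every untreated mouse. Il1rn, at -0.20, passed without untreated replicate 5 of experiment 7 (-0.28, adjusted p = 0.0226). Macrophage markers were lower in 13 of 17, with mean levels of 8.45 to 9.52 in control-antibody mice against 8.63 to 10.2 in untreated mice. Neutrophil markers were lower in 3 of 12, with a median change of -1.26 and mean levels of 6.53 to 10.96 in control-antibody mice against 8.36 to 11.5 in untreated mice; endothelial and fibroblast markers were each lower in 5 of 10. Their part in these differences was not tested.

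The 2 experiments were compared by interaction terms. No member's difference varied between them in limma for the combination (0.0319% of all genes called), anti-TWEAK (1.72%) or TNFR-Ig (0%) against the control antibody, or for the control antibody against untreated mice (0.016%). At an unadjusted p under 0.05 there were 3 for the control antibody, Il1a (-2.03), Il1rap (-0.62) and Il1rn (-0.45), 2 for anti-TWEAK, Il1r1 (-0.52) and Il33 (-0.97), and none for the other 2. The shares of all genes at that unadjusted threshold were 13.2% for the control antibody and 19.9% for anti-TWEAK. In these values a negative number means a lower difference in experiment 10.

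The order of the group means was not the same for all members. Il1b, Il1rn, Il1r1, Il1r2, Il1rap and Il33 were highest in untreated mice, next in TNFR-Ig mice, and lowest in naive after combination mice. Gaps between neighbours in that order exceeded the larger of their SDs only between combination and naive mice, for Il1b, Il1r2, Il33 and Il1rn. Il1a had its highest mean in control-antibody mice and Il18 in naive mice, and for neither gene did any gap between neighbours exceed the SD.

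Within groups most pairs of members varied together from mouse to mouse. After group-by-experiment means were removed, 28 pairs were compared over the 64 colitic mice, with permutation p-values within group and experiment; 1e-05 is the smallest these can give. Both coefficients had an adjusted p under 0.05 in 20 of the 28 pairs, and neither had in 5. Il1b and Il1r2 had Pearson r = 0.91 (permutation p = 1e-05, adjusted 1.87e-05) and Spearman rho = 0.87 (permutation p = 1e-05, adjusted 2e-05). The r was 0.92 without the 2 mice most extreme for Il1b, 0.90 in experiment 7 and 0.93 in experiment 10. Il1r1 and Il1rap, the 2 chains of the signalling receptor, had r = 0.77 and rho = 0.79, and Il1r1 and Il33 had r = 0.75 and rho = 0.74 (each permutation p = 1e-05, adjusted 1.87e-05 for r and 2e-05 for rho). Without the 2 farthest mice these r were 0.74 and 0.70, in experiment 7 they were 0.81 and 0.84, and in experiment 10 they were 0.72 and 0.63. Il1b and Il33 had r = 0.76 and rho = 0.68 (each permutation p = 1e-05, adjusted 1.87e-05 for r and 2e-05 for rho; r = 0.73 without the 2 farthest mice, 0.68 in experiment 7 and 0.85 in experiment 10), with 0.87 inside combination mice and 0.28 inside TNFR-Ig mice. Il18 stood apart: its 7 pairs had r between -0.30 and 0.19, and Il1b with Il18 had r = -0.26 (permutation p = 0.0408, adjusted 0.052) and rho = -0.30 (permutation p = 0.0232, adjusted 0.0309). These points share arrays, tissue composition and severity of disease, which were not separated.

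The members were also set against marker levels, in 16 relations over the same residuals; 13 had an adjusted p under 0.05 for both coefficients and 3 for neither. Il1r2 and the neutrophil mean had r = 0.96 and rho = 0.97 (permutation p = 1e-05 for both, adjusted 1.23e-05 and 1.46e-05), from 0.92 to 0.98 inside the 5 colitic groups, 0.97 in experiment 7 and 0.95 in experiment 10. Il1b and the neutrophil mean had r = 0.85 and rho = 0.83, and Il33 and the macrophage mean r = 0.79 and rho = 0.73 (permutation p = 1e-05 for each, adjusted 1.23e-05 for r and 1.46e-05 for rho). Without the 2 farthest mice these r were 0.85 and 0.75, in experiment 7 they were 0.83 and 0.85, and in experiment 10 they were 0.88 and 0.70. Inside TNFR-Ig mice the r of Il33 with the macrophage mean was 0.17. Il33 was about as close to the neutrophil mean (r = 0.78, rho = 0.74, and r = 0.25 inside TNFR-Ig mice). With the macrophage mean, Il1r2 had r = 0.72 and Il1b r = 0.58. Il1r1 had r = 0.75 with both means, and Il1rap 0.80 with the neutrophil and 0.63 with the macrophage mean. These relations do not assign a member to a cell type. Il18 had r = -0.13 and rho = -0.13 with the neutrophil mean (permutation p = 0.312 and 0.339). With the macrophage mean, Il18 had r = -0.03 and rho = -0.0044 (permutation p = 0.789 and 0.9749), and Il1a r = 0.17 and rho = 0.16 (permutation p = 0.161 and 0.235).

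**Figure D3:**
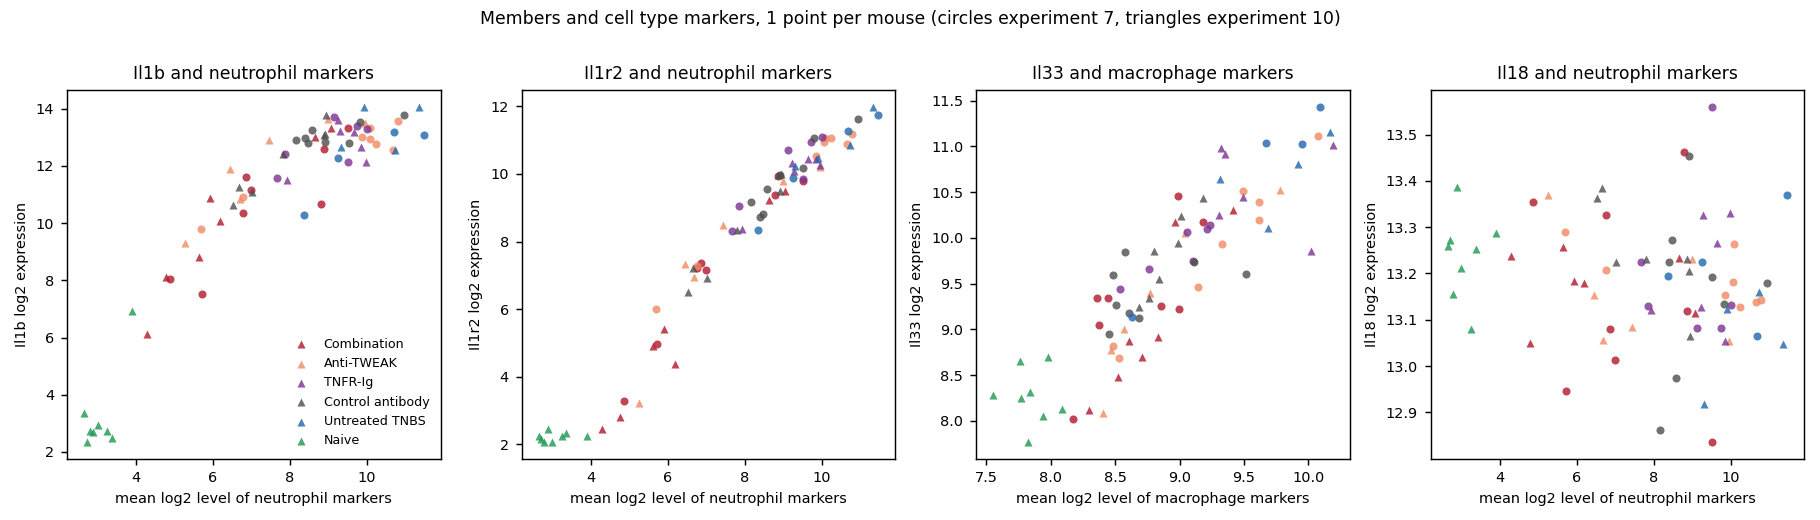
Each point is 1 mouse (circles experiment 7, triangles experiment 10, colours the 6 groups); the horizontal axes give the mean log2 level of neutrophil or macrophage markers and the vertical axes the log2 expression of Il1b, Il1r2, Il33 and Il18. Il1r2 follows the neutrophil markers closely (r = 0.96 over residuals of colitic mice), and Il18 does not (r = -0.13). Il33 is drawn against macrophage markers (r = 0.79) and had r = 0.78 with neutrophil markers.

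Among the genes tested, those whose residuals were most like each member's over the 64 mice were found by Pearson r. Other members, predicted genes, genes with clone names and mitochondrial genes were skipped in this search. For Il1b they were the chemokine genes Cxcl3 (0.97) and Ccl3 (0.96) and the itaconate synthase gene Acod1 (0.96). Il1r2 ranked 9 for Il1b among all genes tested, with none skipped. For Il1a they were Nlrp3 (0.94), an inflammasome sensor, Rab44 (0.89) and the cytokine gene Osm (0.84). For Il1r2 they were Stfa2l1 (0.97) and Clec4d (0.97), both in the neutrophil list, and Clec4e (0.96). Il33 was most like Pdpn (0.90), which encodes podoplanin, Chl1 (0.88) and Dram1 (0.88), and Il1r1 most like the eotaxin gene Ccl11 (0.88), Crispld2 (0.87) and Dram1 (0.87). The nearest genes were less close for Il1rap, Map3k8 (0.86), Dmxl2 (0.86) and Slc15a3 (0.85), for Il1rn, Iqsec1 (0.76), Rbms1 (0.75) and Cd47 (0.75), and for Il18, Gna14 (0.75), B3gnt5 (0.72) and Hoxa11os (0.72).

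Of the genes listed as induced by IL-1, most of those tested were higher in colitis, and most were lower with the combination. Of 21 tested, of 25 listed, 16 were higher and none lower in untreated colitis than in naive colon, with a median change of 3.35 against -0.0085 for all genes; 76.2% of them were called, against 47.8% of all genes. The largest were Cxcl2 (9.11 ± 0.82), a neutrophil chemokine, Lcn2 (8.37 ± 0.87), an iron-sequestering protein, Timp1 (8.12 ± 0.65), a protease inhibitor, and the chemokine gene Cxcl5 (7.44 ± 0.45). In combination against control-antibody mice 12 were lower and 1 higher, with a median of -0.88 against -0.0025 for all genes; 61.9% of them were called, against 31.2% of all genes. Cxcl2 (-2.02 ± 0.58), Cxcl1 (-2.02 ± 0.54), Il6 (-1.86 ± 0.72) and Lcn2 (-1.81 ± 0.62) fell most. The gene that rose was Ccl20 (1.11 ± 0.34; adjusted p = 0.00982), an epithelial chemokine, named after its value was seen. Against TNFR-Ig alone 13 were lower for the combination, with a median of -1.31, or 61.9% called against 6.71% of all genes. TNFR-Ig mice received no antibody, so anti-TWEAK and the presence of an antibody cannot be told apart there. The control antibody against untreated mice had 2 of the 21 called, or 9.52% against 10.3% of all genes. Neither single agent moved any of these genes past the threshold in limma against the control antibody. Such genes also respond to TNF and other signals.

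**Figure D4:**
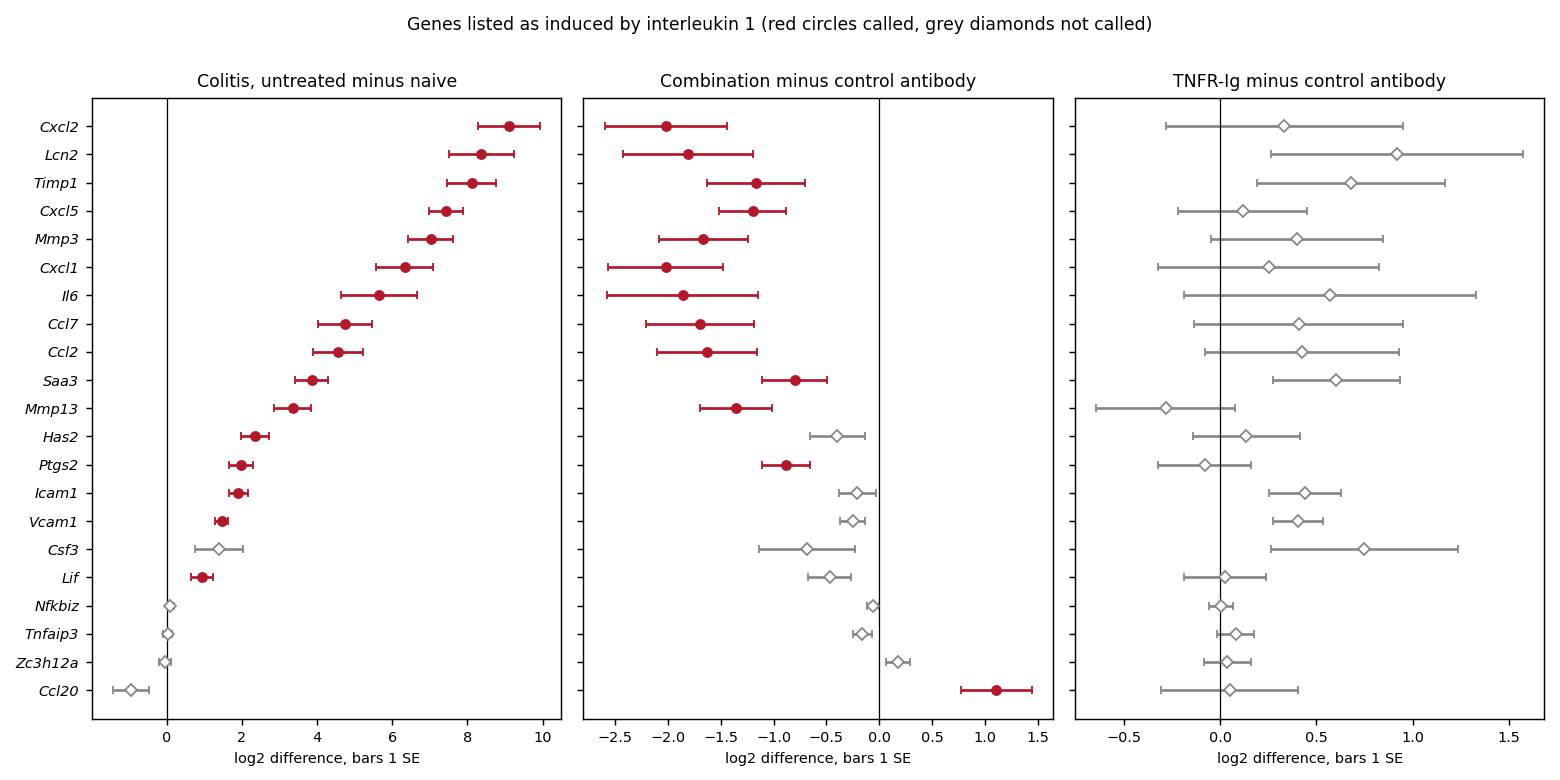
Log2 differences (bars 1 SE) of the 21 tested genes listed as induced by IL-1, ordered by their change in colitis, with called genes as red circles and the others as grey diamonds; each panel has its own axis. In untreated colitis 16 genes lie above naive colon, in combination mice 12 lie below and Ccl20 above control-antibody mice, and in TNFR-Ig mice none is called.

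Genes for maturation of the cytokines were mixed. Of 11 tested, of 18 listed, 4 were higher and 5 lower in untreated colitis than in naive colon, with a median of -0.14; 81.8% of them were called, against 47.8% of all genes. Mefv (4.11 ± 0.62), which encodes pyrin, and Nlrp3 (1.09 ± 0.39) rose, while Nlrp6 (-0.48 ± 0.13), an epithelial sensor, and Casp1 (-0.41 ± 0.06), which encodes the caspase that cleaves both precursors, fell. With the combination, Mefv (-1.40 ± 0.44) and Nlrp3 (-0.86 ± 0.28) were lower and Casp4 (0.22 ± 0.07) higher than with the control antibody, or 27.3% called against 31.2% of all genes.

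Signalling genes below the receptor were called at shares near those of all genes, 55.6% against 47.8% in colitis and 38.9% against 31.2% with the combination. Of 18 tested, of 20 listed, 6 were higher and 4 lower in untreated colitis, with a median of 0.0038. Irak3 (1.95 ± 0.30), which restrains the pathway, and the adaptor gene Myd88 (0.44 ± 0.10) rose, and Irak2 (-0.38 ± 0.16) and Peli1 (-0.33 ± 0.06) fell. With the combination 3 were higher and 4 lower than with the control antibody; the largest were Ikbkg (0.24 ± 0.05), Myd88 (-0.18 ± 0.07), Map2k6 (0.13 ± 0.04) and Ube2n (-0.09 ± 0.02).

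Of other family genes 4 of 12 could be tested, and in untreated colitis Il18rap, a chain of the IL-18 receptor (0.96 ± 0.31), and Il1rl2, the receptor for IL-36 (0.53 ± 0.23; adjusted p = 0.0495), rose; with the combination none was called. Genes listed as responding to IL-33 were tested for 4 of 14: in untreated colitis Chil3 (9.02 ± 1.15), Arg1 (5.71 ± 0.64) and Ccl11 (0.80 ± 0.33) were higher and Retnla (-1.66 ± 0.30) lower than in naive colon. With the combination Chil3 (-2.56 ± 0.81) and Arg1 (-1.19 ± 0.46) were lower and Retnla (0.55 ± 0.21) higher than with the control antibody. Of genes listed as responding to IL-18, 4 of 10 were tested. Irf1 (-0.61 ± 0.14) fell in untreated colitis, and Cxcl10 (-1.08 ± 0.26) was lower with the combination. In colitis 50% of the tested other family genes, 100% of the IL-33 list and 25% of the IL-18 list were called, against 47.8% of all genes. With the combination these shares were 0%, 75% and 25%, against 31.2% of all genes. Each list had only 4 tested genes.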

How the data were processed

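Colon RNA of 72 mice was measured on Affymetrix 3 prime arrays. The deposited table gives log2 expression values per probe set and array, normalised by the authors; the unit was read from the values. The tools named per the submitters' processing notes are limma 3.4.5, R 2.11.1, GCRMA and RMA; their roles are not given in the sources used here. The table has a floor, so differences of dim genes are understated.

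Of 45101 probe sets, 34958 map to 1 symbol, 932 to several and 9211 to none or are controls; symbols were updated by Entrez identifier (99.4% matched). Each of 18194 genes was read on its brightest probe set, and those with a mean under the 40th percentile of probe sets (2.42) were dropped, leaving 12535. A model with 6 groups and an experiment term was fitted to the 72 arrays (limma 3.58.1, R 4.3.3); tests were two-sided with empirical Bayes moderation, and genes were called at an adjusted p under 0.05. All 72 arrays shared 1 estimate of spread per gene. Experiment differences were interaction contrasts. Correlations were tested by 100000 permutations, two-sided. The limma fit was tested on simulated data, and the permutation procedure was not. Figures used matplotlib 3.10.9 under Python 3.11.15. The number of arrays limits the precision.

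The members, lists and tests were chosen with earlier results of these data known. The 8 measured members are given in every comparison of groups, with, in colitis and in the combination against the control antibody, up to 4 called genes of each pathway list by size of change, and the 3 genes most like each member; any other gene is said to be named after its value was seen. Alternatives were no filter, every probe set, the most variable probe set, no experiment term, a replicate block, each experiment alone, quantile normalization, array weights, trend and robust moderation, compared groups alone, pooled controls, and leaving out each array, the naive array with contradictory labels or the combination arrays of another array run. A covariate for pancreas markers was added after the data were seen. Il1rl1 was not analysed here.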

Additional observations from a re-analysis of the deposited data

Results flagged for a closer look

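A single mouse stood far from the rest of its group for Il1b in 2 of the 16 sets of 8 mice examined, the untreated and naive groups for each of the 8 members; chance marks about 1 in 20 such sets. In untreated colitis, replicate 5 of experiment 7 had the lowest Il1b value, 10.29, below the next at 12.28. Without it the difference between untreated and naive mice was 9.68 (adjusted p = 1.36e-16). In naive colon, replicate 5 had the highest value, 6.92, above the next at 3.36. Its neutrophil marker mean of 3.89 was also the highest of the naive mice, whose others lay at 2.65 to 3.37. Without it the combination remained above naive colon by 7.46 (adjusted p = 7e-14).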

How the results depend on the processing

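The counts of called members kept within 1.5 times the reported count under every alternative for untreated colitis against naive colon (5 to 8, with 6 as reported), anti-TWEAK against control antibody (0), TNFR-Ig against untreated (0) and combination against naive (3 to 4). Elsewhere, experiment 7 alone gave 0 for the control antibody against untreated, 1 for the combination against the control antibody and 0 against TNFR-Ig; experiment 10 alone gave 1 for TNFR-Ig and 1 for the combination against the control antibody and 3 for the combination against TNFR-Ig, each with fewer mice. Array weights gave 1 for TNFR-Ig and 5 for the combination against the control antibody, 2 for the combination against anti-TWEAK, 5 for departure from additivity and 2 for the interaction of anti-TWEAK with experiment. Compared groups alone gave 1 for TNFR-Ig against the control antibody. The most variable probe set and pooled controls each gave 5 for the combination against the control antibody. No filter, every probe set and no experiment term each gave 3 for the combination against TNFR-Ig. The covariate for pancreas markers, chosen after seeing the data, gave 2 for the combination against anti-TWEAK (Il1b, Il1r2) and 2 for departure from additivity (Il1r2, Il33); with it Il1a lost its call between combination and control antibody (adjusted p = 0.0507) and Il33 gained one. Leaving out 1 array gave 3 to 6 for the combination against TNFR-Ig, 0 to 1 against anti-TWEAK and 0 to 1 for departure from additivity. The cause of these changes was not tested.

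For single members, no called difference reversed; 69 uncalled differences changed sign without passing. With the replicate block, Il1rap in control antibody against untreated (adjusted p = 0.0688) and Il1a in combination against control antibody (-0.91, adjusted p = 0.0504) lost their calls, giving 2 called members in each. Mice sharing a replicate number were no more alike by median r, at -0.005 over 132 pairs against 0.0071 over 921 others. These medians cannot show whether the numbers pair mice. Across all genes, counts also moved by over 1.5 times: the combination against anti-TWEAK had 0 as reported, 305 with array weights and 486 with the pancreas covariate. Departure from additivity had 40 as reported, 959 with array weights, 274 with the covariate and 0 without an experiment term. In experiment 7 alone and experiment 10 alone, the combination against the control antibody had 1059 and 2200 (3909 as reported), TNFR-Ig 0 and 1950 (512), anti-TWEAK 0 and 1873 (351), and the control antibody against untreated 6 and 2237 (1296). Signal over the floor limits Il1a, at the floor on 32 of 72 arrays.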
